A study of Mus musculus with 16 samples.

Results

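Proteasome genes were followed in mouse cortical neurons that had been depolarised with KCl with or without an shRNA against c-Fos. The genes were chosen by name: every symbol of the array's annotation made of Psma, Psmb, Psmc, Psmd, Psme, Psmf or Psmg and a number, on probe sets that name 1 gene. This gave 49 genes of the 18194 named on the array, on 103 probe sets. A further probe set that names several genes was left out. Of the 49, 46 passed the filter on low values and were tested, and 3 (Psma8, Psmb8 and Psmb11) did not.

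C57BL/6 embryos at day 16.5 gave the cortical neurons, which were grown in culture. On day 5 in vitro they were exposed for 6 h, with polybrene at 6 ug/ml in all groups, to a lentivirus. It encoded an shRNA that targets c-Fos or, for the controls, one that targets firefly luciferase. On day 7 they were silenced and given KCl for 0, 1, 3 or 6 h. The controls therefore also carried virus and an shRNA, and the unstimulated groups had also been silenced. Each of the 8 groups had 2 arrays, labelled as biological replicates. The labels do not say whether these came from separate dissections, so the p-values measure the spread between the arrays. All comparisons rest on 1 shRNA against c-Fos.

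The proteasome degrades proteins that carry ubiquitin chains. Its 20S core is a barrel of alpha and beta rings, in which the beta subunits PSMB5, PSMB6 and PSMB7 cut peptide bonds. The 19S cap, built of the PSMC ATPases and the PSMD subunits, binds ubiquitin, unfolds the substrate and feeds it into the core. Other activators (PA28 and PA200) and the inhibitor PI31 bind the core, and chaperones assemble both parts. In neurons the proteasome turns over synaptic proteins, and its activity at synapses is known to depend on neuronal firing. Nfe2l1 and Nfe2l2 are transcription factors known to act on proteasome genes with small Maf partners. The protein c-Fos, which KCl induces by way of calcium entry, joins Jun proteins to form AP-1.

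On the deposited linear intensity scale, Fos itself read 261 and 232 in the control shRNA arrays at 0 h and 118 and 152 with c-Fos shRNA. At 6 h of KCl it read 11960.4 and 11898 against 3142 and 3339.97. Under c-Fos shRNA its level was lower throughout, by -0.77, -0.75, -1.74 and -1.85 on the log2 scale at 0, 1, 3 and 6 h. All 6 neuron markers were above the filter, and their summed intensity ran from 59988 to 67697 over the arrays. Of 9 microglia markers 7 were below the filter, and the sum of all 9 ran from 331 to 443. The 6 astrocyte markers summed to 11711 to 15922, and Slc1a3 fell by -0.32 at 6 h of KCl with control shRNA. Among the neuron markers, Snap25 rose by 0.31 and Tubb3 fell by -0.75 there. None of the tested oligodendrocyte-lineage, vascular or dividing-cell markers was called at 6 h of KCl or for the shRNA at 0 h. Array medians differed by 13.2%. Since the RNA is from whole cultures, fewer cells of a type and less RNA per cell cannot be told apart.

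All changes below are on the log2 scale of quantile-normalised intensity plus 16, with standard errors from the limma fit over all 16 arrays. That scale understates changes of dim genes, and levels are not compared between genes, because probe sets differ in brightness. Genes were called where the p, adjusted by Benjamini-Hochberg over the 13916 genes tested, was under 0.05. The 31 constitutive subunits of the core and the cap (7 alpha, 7 beta, 6 ATPase and 11 non-ATPase) had bright probe sets, between the 80.0th and the 98.7th percentile of genes. Whether brightness compressed their changes was not tested.

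On the brightest probe set of each gene, the structural subunits moved little after KCl and the genes around them moved more. At 6 h with control shRNA, 5 of the 46 tested members rose and 17 fell, where 16.7% of all genes rose and 27.3% fell. The share of members called was thus close to the 44.1% of all genes called in either direction. The median change was -0.08 over the members and -0.07 over all genes. What set the members apart by role was the size: none of the 31 structural subunits changed by 0.5 or more, while 8 of the other 15 tested members did. Over all genes, 30.7% changed by that much. This contrast depends on the probe set chosen. Dimmer probe sets of the structural genes Psmc6 (-0.96 and -1.13), Psmd6 (-0.50) and Psmd13 (-1.65, mean intensity 75.3) did change by 0.5 or more. Psmf1 and Psme3, which are among the 8, each had a dimmer probe set that was near flat (-0.10 and 0.05). Structural subunits spanned a median of 0.24 log2 between their lowest and highest group means, against 0.83 for the other members and 0.64 for all genes tested.

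Few genes of any kind were called at 1 h, 3.12% of all genes with control and 3.36% with c-Fos shRNA. No member was called then with either shRNA, which is near that share for 46 members. In each arm limma gave 5 members an unadjusted p under 0.05. With the replicate number as a block, Psmd1 (-0.15, adjusted p = 0.034) and Psmf1 (-0.31, adjusted p = 0.0247) were called lower at 1 h with c-Fos shRNA, where 4.24% of all genes were. At 3 h, 5 members rose and 7 fell with control shRNA (11.0% and 19.3% of all genes), and 4 rose and 10 fell with c-Fos shRNA (9.92% and 18.3%). At 6 h with c-Fos shRNA, 6 rose and 13 fell (16.1% and 24.9%). With the replicate block, 5 rose and 12 fell at 3 h with control shRNA (2201 and 3975 of the 13916 genes). With c-Fos shRNA the block gave 4 and 14 at 3 h (2026 and 3946). At 6 h it gave 5 and 18 with control shRNA (3025 and 4899) and 8 and 16 with c-Fos shRNA (3015 and 4634). The 6 h calls of the 2 arms had 5 rises and 12 falls in common, beside 12.2% and 20.5% of all genes. The 3 h and 6 h comparisons of an arm share their 0 h arrays. Leaving out array 1 of the control shRNA 3 h group reduced the 3 h calls from 12 to 7. With c-Fos shRNA, each of the 4 arrays left out in turn reduced the 14 calls at 3 h to between 6 and 8, and leaving out array 2 of the 0 h group reduced the 19 calls at 6 h to 11.

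**Figure D1:**
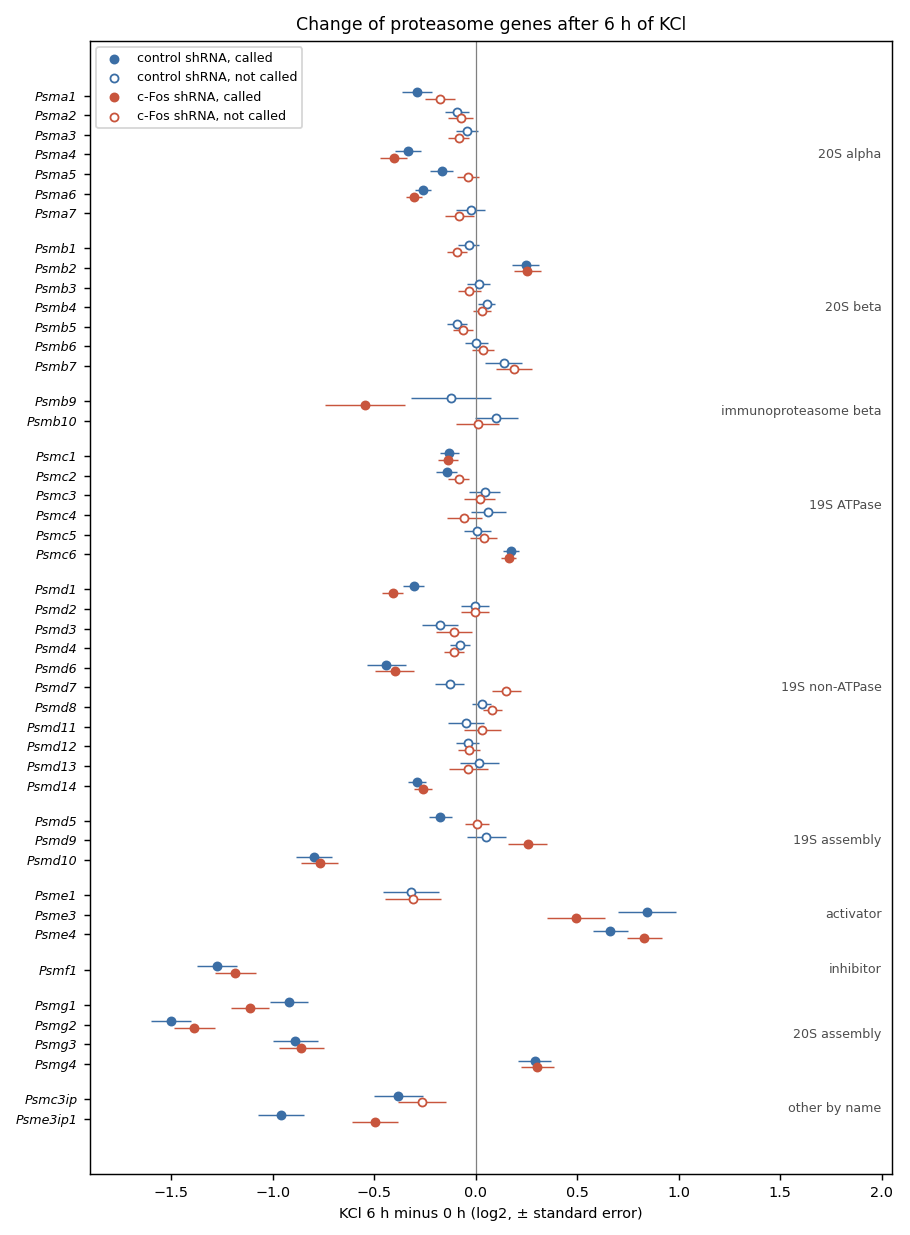
Log2 change from 0 h to 6 h of KCl (horizontal axis, bars ± standard error) for the 46 tested genes, grouped by role, with control shRNA in blue and c-Fos shRNA in red. Filled points were called at an adjusted p under 0.05. Each gene is shown by its brightest probe set. The structural subunits lie between -0.44 and 0.25, and the assembly, activator and inhibitor genes between -1.50 and 0.84.

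Among the alpha subunits, which form the outer rings of the core, 4 of 7 fell at 6 h with control shRNA and none rose. Of all genes, 27.3% fell and 16.7% rose. The 4 were Psma4 (-0.33 ± 0.07, adjusted p = 0.00114), Psma1 (-0.29 ± 0.07), Psma6 (-0.26 ± 0.04) and Psma5 (-0.17 ± 0.06). With c-Fos shRNA, Psma4 (-0.40) and Psma6 (-0.31) fell, and Psma1 was at -0.18 (adjusted p = 0.081, or 0.00305 with the replicate block). With the mean of all its probe sets in place of the brightest, Psma5 turned to 0.26 in control shRNA neurons and the call of Psma1 ended (-0.16), as it did for Psma6 with c-Fos shRNA (-0.20). The Psma5 call also ended under both other normalisations.

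Of the beta subunits of the inner rings, only Psmb2 was called after KCl, at both 3 h and 6 h and with both shRNAs. In control shRNA neurons its intensity was 3424 and 3393 at 0 h and 3965 and 4414 at 6 h. The c-Fos arm read 2537 and 2613, then 2927 and 3271. The arrays at 6 h were above those at 0 h in each arm, a change of 0.25 ± 0.07 in both (adjusted p = 0.00998 and 0.00909). The catalytic subunit genes were not called at 6 h with control shRNA: Psmb5 was at -0.09, Psmb6 at 0.00 and Psmb7 at 0.14. For Psmb6 the 95% interval ran from -0.12 to 0.12, and for Psmb5 from -0.20 to 0.01. Psmb7 was at 0.19 with c-Fos shRNA at 6 h (adjusted p = 0.114, or 0.0266 with the block). The steadiest member was Psmb3, whose 8 group means lay within 0.06 of each other.

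The interferon-inducible subunits, which replace the catalytic ones in immunoproteasomes, were dim. Psmb8 stayed between 5.91 and 33.8 on all 16 arrays, below the filter, and Psmb9 had a mean intensity of 87.1. Psmb9 read 96.4 and 109.7 at 0 h and 72.6 and 58.4 at 6 h with c-Fos shRNA. These arrays did not overlap (-0.55 ± 0.20, adjusted p = 0.0423), whereas with control shRNA the change was -0.12 (adjusted p = 0.662). The difference between the arms was not called, and the c-Fos arm's call ended without the filter and in 3 of 4 cases with an array left out. Psmb10 was brighter (mean 906) and was not called in any comparison. Psma8, a testis form of an alpha subunit, and Psmb11, the thymus form of a beta subunit, were below the filter.

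In the 19S cap, the ATPase genes moved by less than 0.2 at 6 h. Psmc1 (-0.13 ± 0.05, adjusted p = 0.0432) and Psmc2 (-0.14 ± 0.05, adjusted p = 0.0398) fell with control shRNA, and Psmc6 rose on its brightest probe set (0.17 ± 0.04, adjusted p = 0.00277). The calls of Psmc1 and Psmc2 each ended in 7 of 11 alternative settings, among them both other normalisations and the mean of probe sets, which gave -0.031 and -0.015. The other probe sets of Psmc6 fell. Psmc1 also fell with c-Fos shRNA (-0.14), a call that ended without further normalisation and with each array left out, and Psmc2 did not pass there (-0.08).

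Of the 11 non-ATPase subunits 3 fell at 6 h, the same genes with both shRNAs, and none rose. With the replicate block 1 other non-ATPase subunit was called higher with c-Fos shRNA, as were 3015 of the 13916 genes. The share of falls is close to that of all genes (27.3%). Psmd6 went from 4963 and 5317 to 3481 and 4404 with control shRNA, and from 6353 and 7010.1 to 5089.9 and 5245 with c-Fos shRNA. In each arm the 6 h arrays were below the 0 h arrays (-0.44 ± 0.10 and -0.40 ± 0.10). Psmd1, the large scaffold subunit of the cap, went from 6592 and 6485 to 5454 and 5585, and with c-Fos shRNA from 5712 and 5820.1 to 4354 and 4414. Its arrays were also separated (-0.31 ± 0.05, adjusted p = 0.000348, and -0.41 ± 0.05, adjusted p = 4.55e-05). Psmd14, the enzyme that removes ubiquitin chains at the cap, fell by -0.29 and -0.26. Psmd4, a ubiquitin receptor, was at -0.08 with control shRNA, Psmd11 at -0.05 and Psmd12 at -0.04, and none of these passed. With c-Fos shRNA, dimmer probe sets of Psmd11 were called in opposite directions at 6 h (0.32 and -0.55, limma adjusted p = 0.0195 and 0.0481). The latter had a mean intensity of 46.4.

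The activators of the core went in different directions. Psme4 encodes PA200, a single-chain activator known for nuclear proteasomes and histone degradation. It read 2990.4 and 2809.8 at 0 h, 4555 and 4456 at 3 h, then 4601 and 4864 at 6 h with control shRNA. In the c-Fos arm the values were 2665 and 2506, then 4264 and 3785, then 4588 and 4713. Every 3 h and 6 h array lay above every 0 h and 1 h array. The change at 3 h was 0.60 ± 0.09 with each shRNA (adjusted p = 0.00019 and 0.000213). At 6 h it was 0.66 ± 0.09 (adjusted p = 5.1e-05) and 0.83 ± 0.09 (adjusted p = 1.06e-05). Fitted one by one, all 6 probe sets of Psme4 were above 0 at 6 h in each arm, and 5 of them with control shRNA and 4 with c-Fos shRNA were called (39.2% and 36.2% of all probe sets tested were called).

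The promoter of Psme4 is shown because this gene had the clearest rise. From RefSeq (GRCm38.p6) the window from 250 bases before to 50 after the start of the gene lies at chr11:30771525-30771824 on the + strand. Capitals mark a match to TGACNNNGC, the core of the antioxidant response element that Nfe2l1 and Nfe2l2 recognise, here on the opposite strand.
Psme4: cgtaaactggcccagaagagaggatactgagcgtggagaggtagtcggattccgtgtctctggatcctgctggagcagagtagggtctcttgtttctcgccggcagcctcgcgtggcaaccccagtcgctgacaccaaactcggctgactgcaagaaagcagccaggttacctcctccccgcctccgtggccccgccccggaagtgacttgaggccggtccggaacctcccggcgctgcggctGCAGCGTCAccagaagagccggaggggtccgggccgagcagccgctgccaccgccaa

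Psme3 encodes PA28 gamma, a nuclear ring that opens the core without ubiquitin. With control shRNA it read 800.4 and 684 at 0 h, 1117 and 883 at 3 h, then 1364 and 1264 at 6 h. The c-Fos arm read 651 and 611, then 666 and 678, then 907 and 828. The 6 h arrays were above the 0 h arrays in both arms. The change at 6 h was 0.84 ± 0.14 (adjusted p = 0.000377) and 0.49 ± 0.14 (adjusted p = 0.0143), and at 3 h it was 0.44 (adjusted p = 0.0319) and 0.15 (not called). A dimmer probe set of Psme3 was at 0.05 at 6 h with control shRNA and 0.18 with c-Fos shRNA, neither called, and the mean of its probe sets lost all of these calls.

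Psme1 encodes PA28 alpha, the interferon-inducible partner of the cytoplasmic PA28 ring. Its intensity at 0 h was 2173 and 2306 with control and 2838 and 3358 with c-Fos shRNA, and at 6 h it was 1553 and 2084, and 2369 and 2649. Array 2 read higher than array 1 in 8 of 8 groups. The 6 h change was -0.32 ± 0.14 (adjusted p = 0.0822) and -0.31 ± 0.14 (adjusted p = 0.0961), and with the replicate number as a block the adjusted p was 0.000775 and 0.00108.

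**Figure D2:**
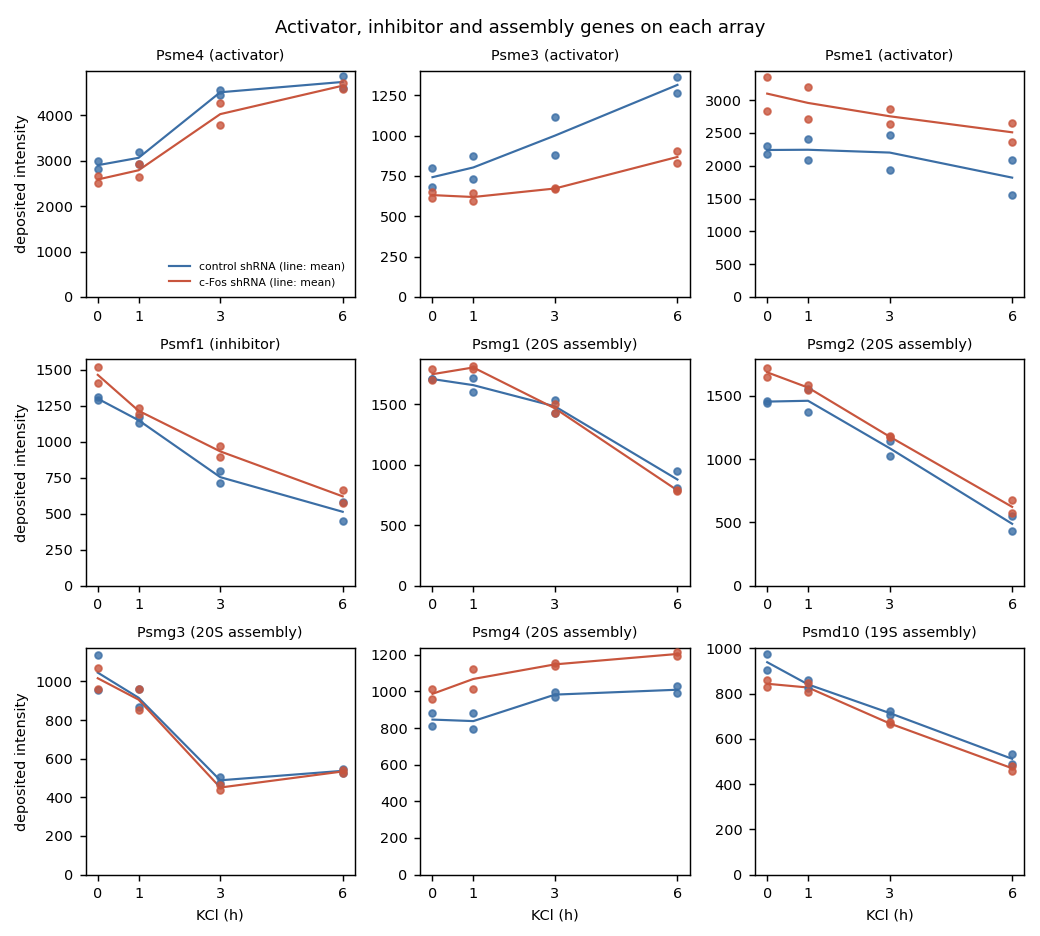
Deposited linear intensity (vertical axes, from 0) against hours of KCl for 9 activator, inhibitor and assembly genes; each point is an array and lines join the means of the 2 arrays of a group, control shRNA in blue and c-Fos shRNA in red. Psme4 rises by 3 h in both arms, Psmg3 is low from 3 h on, and Psmf1, Psmg1, Psmg2 and Psmd10 are lowest at 6 h.

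Psmf1 encodes PI31, known first as an inhibitor of the isolated core and later as an adapter that carries proteasomes along axons. On its brightest probe set it read 1309 and 1287 at 0 h, 710.1 and 797 at 3 h, then 448 and 578 at 6 h with control shRNA. In the c-Fos arm it read 1409.8 and 1517, then 896 and 969, then 573 and 667. Each step was free of overlap, and the 6 h change was -1.28 ± 0.10 (adjusted p = 9.05e-07) and -1.18 ± 0.10 (adjusted p = 2.15e-06). From 3 h to 6 h it fell by a further -0.51 and -0.55. The probe sets of Psmf1 did not move alike. Of its 4 probe sets 3 fell at 6 h in both arms, but the second brightest read 900.1 and 881 at 0 h and 778 and 829.8 at 6 h with control shRNA, a change of -0.10, and was at 0.06 with c-Fos shRNA. Mean intensities of the brightest and this flat probe set were 993 and 944, so that 10 of the alternative settings, 8 of them with an array left out, took the flat one for the gene.

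**Figure D3:**
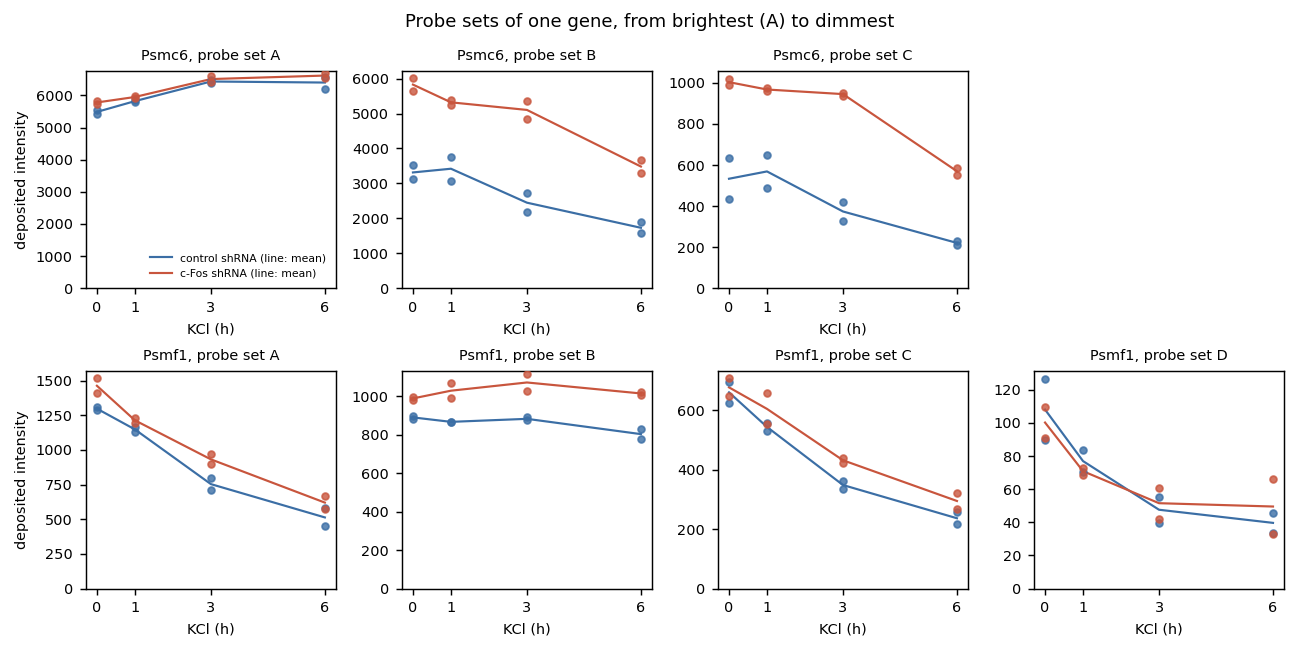
Deposited linear intensity (vertical axes, from 0) against hours of KCl for the probe sets of Psmc6 (upper row) and Psmf1 (lower row), ordered from brightest (A) to dimmest; points are arrays and lines join the means of 2 arrays, control shRNA in blue and c-Fos shRNA in red. Psmc6 probe sets B and C fall with KCl and are higher with c-Fos shRNA while A rises slightly, and Psmf1 probe set B is flat while A, C and D fall.

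Psmg2, a chaperone of the 20S core, had the largest fall among the members at 6 h with each shRNA. PSMG1 and PSMG2 form a heterodimer that assembles the alpha ring, and PSMG3 and PSMG4 form another. Of the 4 genes, 3 fell at 6 h and 1 rose, with both shRNAs. Of all genes, 27.3% fell and 16.7% rose with control shRNA, and 24.9% and 16.1% with c-Fos shRNA. Psmg2 read 1460.4 and 1446 at 0 h, 1026 and 1144 at 3 h, then 429.6 and 548 at 6 h with control shRNA. Neurons with c-Fos shRNA read 1647 and 1721, then 1171 and 1182, then 572 and 673. No group overlapped the one before, from 0 h to 3 h and from 3 h to 6 h. The 6 h change was -1.50 ± 0.10 with control shRNA (adjusted p = 2.63e-07) and -1.39 ± 0.10 with c-Fos shRNA (adjusted p = 7.24e-07). A second probe set fell as well, by -1.58 and -1.47.

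Psmg1, the partner of PSMG2, moved later. It read 1709 and 1712 at 0 h, 1535 and 1433 at 3 h, then 950.5 and 807 at 6 h with control shRNA. With c-Fos shRNA it read 1797 and 1704, then 1507 and 1428, then 788 and 790.2. The 3 h change was -0.22 (adjusted p = 0.107, or 0.0139 with the replicate block) and -0.25 (adjusted p = 0.0714, or 0.00672 with the block). From 3 h to 6 h Psmg1 fell by -0.70 ± 0.09 with control shRNA (adjusted p = 0.00045) and by -0.87 ± 0.09 with c-Fos shRNA (adjusted p = 0.000156). In these comparisons of 6 h with 3 h, 10 members were called with control shRNA, all lower (17.0% of all genes were called and 7.97% were higher). The replicate block gave 2 higher and 13 lower there (15.8% and 18.2% of all genes). The higher genes were Psme3 (0.40, adjusted p = 0.0763, or 0.00137 with the block) and Psmd5 (0.15, adjusted p = 0.104, or 0.0413 with the block). With c-Fos shRNA 2 rose and 6 fell (8.98% and 8.18%), or 5 and 9 with the replicate block (16.6% and 17.1%). Without the block, 14 members had an unadjusted limma p under 0.05 with control shRNA. Without array 2 of the control shRNA 3 h group the 10 calls became 4.

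Psmg3 moved early. It read 1137 and 954 at 0 h, 961 and 869.6 at 1 h, 503 and 473 at 3 h, then 548 and 526 at 6 h with control shRNA. With c-Fos shRNA the values were 962 and 1071, 853 and 958, 465 and 436, and 540.5 and 527. The 3 h arrays were below all earlier arrays in both arms, and the change at 3 h was -1.05 ± 0.11 (adjusted p = 1.68e-05) and -1.11 ± 0.11 (adjusted p = 1.32e-05). At 6 h it was -0.89 and -0.86. The mean of its probe sets kept the calls with smaller changes, -0.54 at 3 h in both arms and -0.46 at 6 h with control shRNA. Its partner Psmg4 went the other way, with 809 and 884 at 0 h and 989.9 and 1029 at 6 h in control shRNA neurons, and 961 and 1012, then 1194 and 1215, with c-Fos shRNA. The arrays did not overlap, and the rise was 0.29 ± 0.08 (adjusted p = 0.0105) and 0.30 ± 0.08 (adjusted p = 0.00874). The mean of its probe sets lost these calls.

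Promoters of Psmf1, Psmg1 and Psmg3, which were among the larger falls with both shRNAs, are shown beside that of Psme4, which rose. Psmg2 is not shown. The windows of Psmd10 and Psme3ip1, which also fell, held none of the motifs searched and are not printed. The window of Psmf1 is chr2:151741261-151741560, that of Psmg1 chr16:95990911-95991210 and that of Psmg3 chr5:139826845-139827144, all on the - strand (GRCm38.p6, RefSeq). The Psmf1 window lies inside the gene (chr2:151716062-151744199), at an inner start, and the outermost start of Psmf1 was not searched. None of these windows holds a match to TGACNNNGC or to the cyclic AMP response element TGACGTCA on either strand. None holds TGANTCA, a loose form of the AP-1 site that allows any base in the middle. They therefore carry no capitals.
Psmf1: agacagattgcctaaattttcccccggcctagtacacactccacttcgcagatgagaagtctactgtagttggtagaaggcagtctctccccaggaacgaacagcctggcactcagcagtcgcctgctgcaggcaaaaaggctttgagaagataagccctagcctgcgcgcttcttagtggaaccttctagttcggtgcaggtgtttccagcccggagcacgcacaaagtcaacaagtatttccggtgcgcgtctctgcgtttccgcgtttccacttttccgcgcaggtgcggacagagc
Psmg1: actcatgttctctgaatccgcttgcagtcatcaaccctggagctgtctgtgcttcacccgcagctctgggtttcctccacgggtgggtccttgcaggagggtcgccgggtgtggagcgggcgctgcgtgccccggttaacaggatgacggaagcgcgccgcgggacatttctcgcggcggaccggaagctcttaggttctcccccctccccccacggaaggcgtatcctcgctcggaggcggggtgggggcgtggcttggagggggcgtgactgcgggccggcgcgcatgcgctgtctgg
Psmg3: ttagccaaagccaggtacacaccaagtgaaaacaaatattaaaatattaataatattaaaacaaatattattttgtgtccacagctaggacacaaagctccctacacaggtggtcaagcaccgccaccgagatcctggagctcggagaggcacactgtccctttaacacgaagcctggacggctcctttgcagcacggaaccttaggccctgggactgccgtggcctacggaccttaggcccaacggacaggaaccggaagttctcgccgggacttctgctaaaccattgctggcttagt

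Over all members, 41 had a RefSeq window (44 windows). TGACNNNGC was in 6 of the 44 windows (13.6%), and in 12.4% of all 32851 windows of this length. The 6 were those of Psmb5, Psmb6, Psmc6, Psmd12, Psmd9 and Psme4, of which KCl raised Psme4 alone by 0.5 or more. TGANTCA was in 2 windows (4.55%, Psmb5 with TGAATCA and Psmd9 with TGAGTCA) against 7.81% of all. TGACGTCA was in 0 of the 44 windows, against 1.79% of all. TGACNNNGC can overlap the other motifs, as it did in 149 of all windows. A match is a run of letters, not a site shown to be bound.

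The chaperones of the 19S cap were split. Psmd10, which encodes gankyrin and binds the ATPase Psmc4, read 975 and 903 at 0 h and 534 and 489.6 at 6 h with control shRNA. The c-Fos shRNA arrays read 859 and 829, then 458 and 482. These arrays were fully separated, with changes of -0.80 ± 0.09 (adjusted p = 1.74e-05) and -0.77 ± 0.09 (adjusted p = 2.9e-05). Psmd5 was lower at 3 h (-0.32 and -0.19) and at 6 h with control shRNA (-0.17). With c-Fos shRNA it was at 0.01 at 6 h, and the interaction was not called. Psmd9 rose at 6 h with c-Fos shRNA (0.26, adjusted p = 0.0479) and was at 0.05 with control shRNA. That rise was lost in 7 of 11 alternative settings and was 0.13 with the mean of probe sets. The 6 h call of Psmd5 also ended with either other normalisation and with each array left out.

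A pair of genes met the naming rule without being subunits. Psmc3ip encodes HOP2, which acts in meiotic recombination, and Psme3ip1 a protein that binds PA28 gamma. Psme3ip1 read 2756 and 3039 at 0 h, 1980.0 and 1938.5 at 3 h, then 1439 and 1532 at 6 h with control shRNA. In the c-Fos arm it stood at 1915 and 1934, then 1042 and 1278, then 1284 and 1423. All 3 h and 6 h arrays were below the 0 h arrays of their arm. At 6 h the change was -0.96 ± 0.11 (adjusted p = 2.39e-05) and -0.50 ± 0.11 (adjusted p = 0.00364). Psmc3ip fell by -0.38 ± 0.12 with control shRNA (adjusted p = 0.0201) and was at -0.27 with c-Fos shRNA (adjusted p = 0.0965, or 0.033 with the block).

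Some structural subunits and some other members differed between the shRNAs, already before KCl. Without the replicate block, none of the 6 ATPase subunits was called at any of the 4 times. At 0 h, 12 members were called, 2 higher and 10 lower with c-Fos shRNA, where 22.3% of all genes were called and 10.3% were lower. The replicate block gave 6 and 16 (20.4% and 18.4% of all genes). A shift of each array to a common median in place of quantile normalisation gave 4 and 7. At 1 h, 4 were higher and 7 lower (10.8% and 10.0% of genes). The block gave 7 and 11 (19.4% and 18.4%), and no further normalisation gave 2 and 6. At 3 h, 2 were higher and 11 lower (12.4% and 10.9%), or 4 and 16 with the block (20.6% and 19.9%). At 6 h, 3 were higher and 9 lower (13.4% and 10.4%). The block gave 8 and 11 (22.8% and 18.8%), and the median shift gave 5 and 9. Every time point has arrays of its own, but same-numbered arrays deviated together across groups, so the times are not independent repeats. The median difference over members was -0.05 at 0 h, beside 0.02 over all genes. Without array 1 of the control shRNA 0 h group the 12 calls at 0 h became 4, and without array 2 of the c-Fos shRNA 0 h group 6. The 11 calls at 1 h became 5 without either control shRNA array. The 13 at 3 h became 7 without array 1 of the c-Fos shRNA group and 8 without array 1 of the control group. The 12 at 6 h became 5 without array 1 of the control group and 6 without either c-Fos shRNA array. Cell type markers also differed at 0 h: of the 6 neuron markers Rbfox3 was lower with c-Fos shRNA (-0.74) and none was higher, and of the 6 astrocyte markers Slc1a3 was lower (-0.23). The summed neuron markers ran from 63815 to 67697 with control and from 61056 to 65031 with c-Fos shRNA at 0 h, and the summed astrocyte markers from 13990.4 to 15922 and from 13033 to 14921. Their part in these differences was not tested.

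Among these, 1 gene was higher and 6 were lower at all 4 times: Psmd6 was higher, and Psmb2, Psma1, Psma4, Psmb1, Psmd1 and Psmd8 were lower. Of all genes, 6.48% were higher and 4.97% lower at every time. All 7 are structural subunits. Psmb2 read 3393 to 4414 on the 8 control shRNA arrays and 2537 to 3271 on the 8 c-Fos shRNA arrays. At each time both c-Fos arrays were below both control arrays, by -0.42, -0.37, -0.40 and -0.41 at 0, 1, 3 and 6 h (standard error 0.07 each, adjusted p from 0.000772 to 0.00186). Psmb2 thus rose with KCl within each arm, and its interaction was not called.

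Psma1, an alpha subunit, read 7825 and 7805 with control and 5721 and 6187 with c-Fos shRNA at 0 h, with no overlap at any time. It was lower by -0.40, -0.38, -0.36 and -0.28, but with the mean of its probe sets the calls were lost, and at 3 h the difference turned to 0.031. Psmd1 read 5454 to 6592 with control and 4354 to 5820.1 with c-Fos shRNA over all times. It was lower at each time by -0.19, -0.26, -0.32 and -0.30. Of the 7 genes called at all 4 times, only Psmb2 kept its 4 calls in every alternative setting run, and each of the others lost 1 or more. Psma4 was lower by -0.20 to -0.28, Psmb1 by -0.22 to -0.28 and Psmd8 by -0.14 to -0.24. Psmd11, a cap subunit that limits how much proteasome is assembled in stem cells, read 5878 to 6392 with control and 4645 to 4907 with c-Fos shRNA at 0 h. It was lower by -0.38, -0.40 and -0.29 at 0, 3 and 6 h, and by -0.24 at 1 h (adjusted p = 0.0787, or 0.00998 with the block). The mean of its probe sets ended these calls. Psmd7 was lower at 0 h (-0.31) and Psmd4 at 3 h (-0.15, adjusted p = 0.0477). Both calls ended with the mean of probe sets, and that of Psmd4 with each array left out.

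Psmd6 was the structural subunit called higher at all 4 times. At 3 h it read 3860.2 and 4530.3 with control and 6174 and 6304 with c-Fos shRNA, and both c-Fos arrays were above both control arrays at each time. The difference was 0.37, 0.43, 0.57 and 0.41 at 0, 1, 3 and 6 h (standard error 0.10 each, adjusted p from 0.000997 to 0.0146). A second probe set of Psmd6 was higher by 0.40 at 0 h and 0.52 at 6 h.

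The chymotrypsin-like catalytic subunit Psmb5 read 5809 and 5669.98 with control and 5035 and 5038 with c-Fos shRNA at 0 h. It was lower at 0 h (-0.20 ± 0.05, adjusted p = 0.0104), 3 h (-0.28 ± 0.05, adjusted p = 0.0012) and 6 h (-0.17 ± 0.05, adjusted p = 0.0243). Psmb6 was at -0.02 at 0 h, and Psmb7 was higher at 1 h (0.28, adjusted p = 0.0433). The Psmb7 call ended without further normalisation and without the filter, and the Psmb5 call at 0 h with the median shift. The window of Psmb5 (chr14:54617946-54618245, - strand, GRCm38.p6, RefSeq) is shown because of its match to TGANTCA. That match reads TGAATCA, and TGANTCA is looser than the AP-1 consensus. Psmb5 had the only promoter with a TGANTCA match among the 25 structural subunits that had a window. Capitals mark first TGACNNNGC and then TGANTCA, the latter within the bases after the start.
Psmb5: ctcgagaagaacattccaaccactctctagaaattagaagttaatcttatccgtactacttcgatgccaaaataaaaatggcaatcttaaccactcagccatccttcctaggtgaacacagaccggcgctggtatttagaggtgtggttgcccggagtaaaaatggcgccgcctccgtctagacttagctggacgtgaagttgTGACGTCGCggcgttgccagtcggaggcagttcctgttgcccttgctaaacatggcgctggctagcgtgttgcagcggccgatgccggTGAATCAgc

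**Figure D4:**
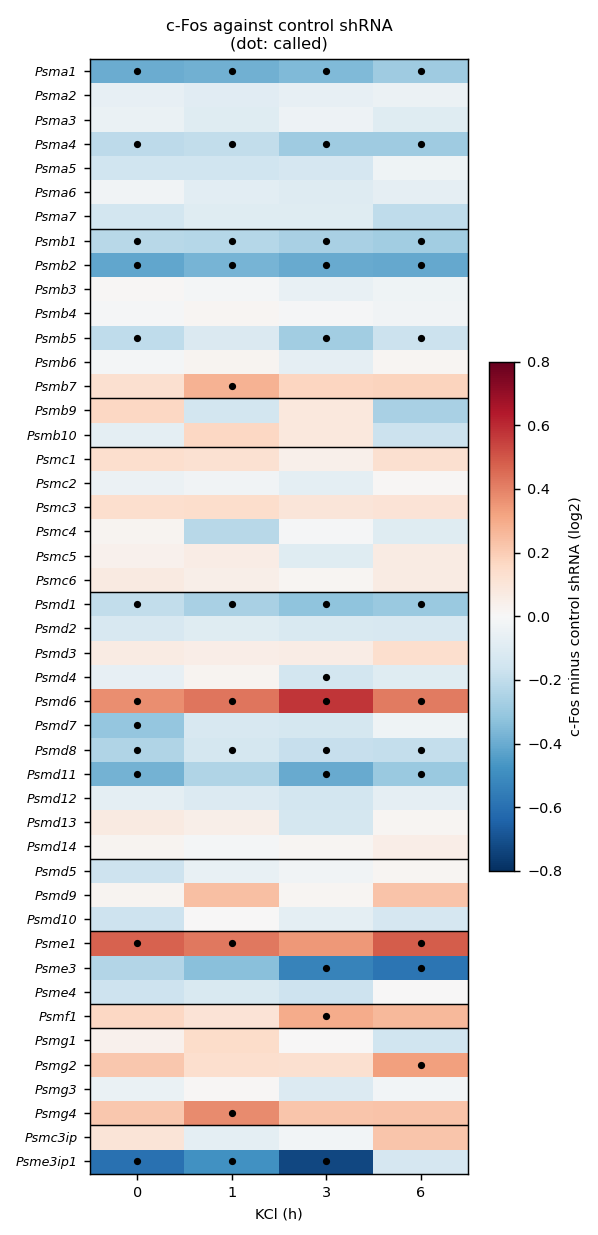
Log2 difference between c-Fos and control shRNA (colour, red higher and blue lower with c-Fos shRNA) for the 46 tested genes (rows, with lines between roles) at 0, 1, 3 and 6 h of KCl (columns); dots mark calls at an adjusted p under 0.05. Psmd6 is higher and Psmb2, Psma1, Psma4, Psmb1, Psmd1 and Psmd8 are lower in every column.

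Among the regulators of the core, Psme1 was higher with c-Fos shRNA by 0.47, 0.42, 0.34 and 0.48 at 0, 1, 3 and 6 h. The 3 h difference had an adjusted p of 0.0969, or 0.000778 with the replicate block, and leaving out single arrays ended the call at 0, 1 and 6 h in 3 of 4 cases each. The 0 h and 1 h calls also ended without further normalisation. Psme3 was lower by -0.53 at 3 h and by -0.58 at 6 h (adjusted p = 0.0163 and 0.0103), and was at -0.23 and -0.33 at 0 and 1 h, where the block alone gave a call (adjusted p = 0.0333 and 0.00428). Psme4 was at -0.17 at 0 h (adjusted p = 0.21, or 0.0441 with the block), -0.12 at 1 h, -0.16 at 3 h (adjusted p = 0.21, or 0.0447 with the block) and 0.00 at 6 h. Psme3ip1 was lower by -0.60, -0.48 and -0.73 at 0, 1 and 3 h, and at -0.13 at 6 h. Psmg4 was higher by 0.38 at 1 h (adjusted p = 0.00501) and by 0.22 to 0.23 at the other times, where it was called with the block only, and the mean of its probe sets gave -0.043 at 1 h. Psmg2 was higher at 6 h (0.33, adjusted p = 0.0324) and Psmf1 at 3 h (0.30, adjusted p = 0.0488), and both calls ended with the mean of probe sets.

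Averaged over the 4 times, a comparison added after the data had been seen, 10 members were higher and 19 lower, where 25.2% of all genes were higher and 22.7% lower. Of the 7 alpha subunits 6 were lower on average and none was higher, the largest being Psma1 (-0.36) and Psma4 (-0.24). Of the 6 ATPases none was lower and 3 were higher, by 0.12 or less (Psmc1, Psmc3 and Psmc6).

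The KCl response of the members was not shown to differ between the shRNAs. An F test over the interaction at 1, 3 and 6 h called 0 of 46 members, with 1 at an unadjusted limma p under 0.05 (2.17%, against 10.7% of all genes), and 121 of all 13916 genes (0.870%). With the replicate block it called 1 member, Psme3ip1 (adjusted p = 0.0191), and 10.1% of all genes. At 6 h alone, where 1.24% of all genes were called, no member was called and 3 had an unadjusted p under 0.05. Psme3ip1 was at 0.46 ± 0.16 (adjusted p = 0.202, or 0.0216 with the block), its fall with KCl being smaller with c-Fos shRNA. Psmd7 was at 0.28 ± 0.10 (adjusted p = 0.226, or 0.0424 with the block). The block called 5.73% of all genes higher here. Psme3 was at -0.35 ± 0.20 (adjusted p = 0.488). With 2 arrays a group the interaction has the widest errors of all comparisons made here.

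Genes that work with the proteasome were taken from 4 lists. Of 20 tested partners of the proteasome, 4 rose and 3 fell at 6 h with control shRNA, beside 16.7% and 27.3% of all genes. With c-Fos shRNA 3 rose and 4 fell, beside 16.1% and 24.9%. Usp14, a deubiquitinase that sits on the cap, rose by 0.61 ± 0.06 (adjusted p = 9.44e-06), and Uchl5, the other such deubiquitinase, fell by -0.51 ± 0.07. The ubiquitin ligase Ube3c fell by -0.65 ± 0.07. Akirin2, which brings proteasomes into the nucleus, rose by 0.34 and was higher with c-Fos shRNA by 0.99 ± 0.06 at 0 h (adjusted p = 4.23e-07). Between the shRNAs at 0 h, 3 of the 20 partners were higher and 6 lower with c-Fos shRNA. Of all genes, 22.3% were called there and 10.3% were lower. Pomp, the maturation factor of the core, did not pass (-0.11, adjusted p = 0.0618). The median over the list was -0.06, near that of all genes.

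Of 10 tested regulators of proteasome genes, 5 rose and 2 fell at 6 h with control shRNA, and 3 rose and 2 fell with c-Fos shRNA, against the same shares of all genes. Nfe2l1 (0.05) and Nfe2l2 (-0.01) were not called. Their small Maf partners rose: Maff by 4.34 ± 0.18, Mafk by 0.59 ± 0.12 and Mafg by 0.28 ± 0.08. Ngly1, whose product removes sugars from NFE2L1, fell by -1.45 ± 0.08 (adjusted p = 5.76e-08), and Keap1, whose product keeps NFE2L2 low, by -1.32 ± 0.14 (adjusted p = 9.43e-06). With c-Fos shRNA these were -1.52 and -1.26. At 0 h, 1 of the 10 differed between the shRNAs, Mafg (-0.28), where 22.3% of all genes did. Averaged over the 4 times, 5 of the 10 were lower with c-Fos shRNA and none was higher (22.7% and 25.2% of all genes).

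Of 8 tested ubiquitin and conjugation genes 5 rose and none fell at 6 h with control shRNA, Uba6 (0.43 ± 0.10) by the most, and 5 rose and 1 fell with c-Fos shRNA (all genes: 16.7% and 27.3%, then 16.1% and 24.9%). Of 8 tested antigen-presentation genes, partners of the immunoproteasome, 3 rose and none fell in each arm. With control shRNA these were B2m (1.01 ± 0.12), H2-K1 (0.81 ± 0.15) and H2-D1 (0.84 ± 0.11). Between the shRNAs at 0 h, B2m was higher (1.28) and H2-K1 (-0.53) and H2-D1 (-0.48) were lower with c-Fos shRNA.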

How the data were processed

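Biotin-labelled RNA of 16 cultures was read on Affymetrix mouse genome 430 2.0 arrays. The deposited values are linear intensity per probe set, 0.51 to 23935.6, from the authors' Affymetrix processing per the labels' protocols. The software that summarised the probes, and its scaling, is not given in the sources used here. Detection calls were not used.

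From these, log2(intensity + 16) was quantile normalised over all probe sets except 64 array controls. The platform annotation, matched to RefSeq, gave 1 gene for 34945 probe sets. The brightest probe set stood for a gene, and genes above the 30th percentile of probe set means were tested (13916 of 18194). limma 3.58.1 in R 4.3.3 fitted 8 group means (8 residual degrees of freedom, lmFit and eBayes with an intensity trend), with Benjamini-Hochberg adjustment in each contrast. The fit was checked on simulated data.

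Same-numbered arrays deviated together across groups (correlation of replicate differences over 0.1 in 28 of 28 pairs of groups, 0.36 to 0.60). In the fits with the replicate block, the numbers from the array labels were therefore taken to pair them. The main fit, which gave the calls unless the block is named, did not use this pairing. Blocked values are given for many, but not all, of the calls that the block changed. Alternatives were no or another normalisation, pseudocounts of 1 and 64, no filter, the mean of probe sets, the replicate block, and each array left out. The number of arrays limits the precision.

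The members, gene lists and tests were chosen with earlier results of these data known. Named in full were Fos, up to 5 called members with the largest change each way per comparison, the catalytic and immunoproteasome pairs, Psmd4, Psmd11, Psmd12, Psme4, Psmc3ip, and called genes of the lists. The comparison of 6 h with 3 h, the average over times, the fits by probe set and the AP-1 and cyclic AMP motifs were added after the data were seen, as was the naming of further members beside their groups.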

Additional observations from a re-analysis of the deposited data

Results flagged for a closer look

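Probe sets of Psmc6 that the gene-level tests did not use moved against the one they did. Psmc6 encodes an ATPase of the 19S cap. Its brightest probe set rose at 6 h of KCl (0.17 with control and 0.16 with c-Fos shRNA). The second brightest read 3115 and 3513 at 0 h and 1573.5 and 1886 at 6 h with control shRNA, and 5650.03 and 6006 then 3287 and 3678 with c-Fos shRNA. The 6 h arrays were below the 0 h arrays in each arm, by -0.96 and -0.76 (limma adjusted p = 5.66e-05 and 0.000366). The dimmest read 432 and 634 then 209.8 and 231.5 with control shRNA, and 1019 and 988 then 553 and 587 with c-Fos shRNA, which is lower by -1.13 and -0.75 (adjusted p = 0.000245 and 0.00474). Both were higher with c-Fos shRNA, by 0.81 and 0.94 at 0 h and by 1.00 and 1.32 at 6 h, where the brightest probe set was not called (0.07 and 0.06). What separates these probe sets was not tested.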

How the results depend on the processing

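Of 133 single-gene calls, all 133 kept direction and call with pseudocounts of 1 and 64 and with the replicate block. Without further normalisation 106 did, with the median shift 107, without the filter 120, with the mean of probe sets 85, and with single arrays left out 332 of 532. No scaling moved the median of all genes by over 0.1.

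Psmf1 reversed where its flat probe set was taken for the gene: with c-Fos shRNA to 0.11 at 3 h and 0.037 at 6 h without normalisation and, with the median shift, to 0.015 (control, 3 h), 0.11 (c-Fos, 3 h) and 0.035 (c-Fos, 6 h). With single arrays left out it ran from -0.84 to 0.034 (control, 3 h), from -0.68 to 0.20 (c-Fos, 3 h) and from -1.24 to 0.12 (c-Fos, 6 h). The highest values came without array 1 of the 0 h group of that arm, and c-Fos shRNA at 3 h was at 0.07 without array 2. With the mean of probe sets, Psmc6 reversed to -0.25 and -0.64 (control, 3 h and 6 h) and -0.061 and -0.45 (c-Fos), Psma5 to 0.26, Psmg4 to -0.043 and Psma1 to 0.031.

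Counts of members called moved by over 1.5 times in these cases. Without normalisation 6 h against 3 h gave 6 (control shRNA); the median shift gave 9 (KCl 3 h, c-Fos shRNA) and 5 (6 h against 3 h, c-Fos shRNA); no filter gave 7 for the shRNA difference at 1 h; the mean of probe sets gave 5 at 1 h and 8 at 3 h. The replicate block gave 2 (KCl 1 h, c-Fos shRNA), 22, 18, 20 and 19 (shRNA difference at 0, 1, 3 and 6 h), 14 (6 h against 3 h, c-Fos shRNA) and 1 (interaction).

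With single arrays left out, counts for KCl at 1, 3 and 6 h were 0, 7 to 9 and 15 to 20 with control shRNA, and 0, 6 to 8 and 11 to 17 with c-Fos shRNA. They were 4 to 11, 5 to 10, 7 to 11 and 5 to 10 for the shRNA difference at 0, 1, 3 and 6 h, 4 to 6 and 4 to 5 for 6 h against 3 h (control and c-Fos shRNA), and 0 for the interaction. Arrays that moved a count by over 1.5 times were, with control shRNA, array 1 at 0 h, both at 1, 3 and 6 h, and, with c-Fos shRNA, both at 0, 3 and 6 h. A group left with 1 array is assumed to vary like the others.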
